A study of Mus musculus with 30 samples.

Results

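The endoplasmic reticulum (ER) chaperones described here are 10 genes: Hspa5, Hsp90b1, Calr, Canx, Pdia3, Pdia4, Pdia6, Dnajb9, Xbp1 and Herpud1. They were taken by symbol in the GENCODE mouse annotation from a table of read counts for 55487 gene identifiers in 30 mouse hearts, and all 10 were found. Hearts were taken 8 weeks after sham surgery or after transverse aortic constriction (TAC), in which a clip on the aorta raises the pressure against which the heart pumps. In the floxed cohort, mice with a floxed Cpt1a gene served as controls (FF_sham and FF_TAC), and mice labelled as cardiac-specific Cpt1a knockouts formed KO_sham and KO_TAC, with 4 hearts in each of these groups. In the AAV9 cohort, C57Bl/6 mice received saline (PBS_sham and PBS_TAC, 3 hearts each) or AAV9.Cpt1a, a viral vector for Cpt1a that the design text writes as AAV9.cTNTN.Cpt1a and calls cardiac-specific (AAV_sham and AAV_TAC, 4 hearts each). Cpt1a encodes carnitine palmitoyltransferase 1a, which controls the entry of fatty acids into mitochondria, and the series asked what lowering or raising it does under pressure overload. The labels name neither the Cre driver nor which of 2 clip sizes a mouse received, and the design text speaks of a knockdown. Titles of the KO_TAC samples contain the words TAC and Sham, and the group was taken from their genotype and treatment labels. Replicates are labelled as separate samples without stating how the animals were assigned, so p-values measure the spread between these samples, which may be technical.

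The ER folds secreted and membrane proteins, among them the calcium channels, receptors and matrix proteins that a heart cell makes. Chaperones hold unfolded chains, lectin chaperones retain glycoproteins, and protein disulfide isomerases form and reshuffle disulfide bonds. When unfolded protein builds up, the sensors IRE1, ATF6 and PERK start the unfolded protein response, which raises transcription of these genes. Many of them carry in their promoters the ER stress response element (ERSE), which ATF6 and the spliced form of XBP1 bind together with the CCAAT-binding factor NF-Y. Calreticulin and GRP94 also bind calcium, which the heart stores in the related sarcoplasmic reticulum.

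Promoter sequences are shown because the 10 genes are known as shared targets of this response. The sites below match, exactly or with 1 mismatch, motifs that its factors are known to bind. Windows from 250 bases before to 50 bases after each start were available for 10 of 10 genes (RefSeq, GRCm38.p6). They were searched on both strands for ERSE, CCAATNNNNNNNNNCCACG, and for ERSE-II, ATTGGNCCACG. Capitals mark the match, which is written in the motif's own direction, and flanking bases are in lower case.
Hspa5 ERSE, chr2:34772020-34772048, plus strand: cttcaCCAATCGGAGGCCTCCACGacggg
Hsp90b1 ERSE, upstream copy, chr10:86705633-86705661, minus strand: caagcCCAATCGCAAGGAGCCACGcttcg
Hsp90b1 ERSE, downstream copy, chr10:86705528-86705556, plus strand: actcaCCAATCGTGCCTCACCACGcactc
Calr ERSE, chr8:84847070-84847098, plus strand: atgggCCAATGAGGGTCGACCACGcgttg
Canx ERSE, chr11:50325795-50325823, minus strand: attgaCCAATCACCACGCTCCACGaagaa
Pdia6 ERSE, chr12:17266486-17266514, plus strand: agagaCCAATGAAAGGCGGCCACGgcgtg
Pdia3 ERSE with 1 mismatch, chr2:121413868-121413896, plus strand: cgcagCCAATCGGCGGCTGCCACActgcg
Pdia4 ERSE with 1 mismatch, chr6:47813597-47813625, plus strand: gaccaCCAATCACGGGCTGCCACTcggtt
Herpud1 ERSE-II, chr8:94386372-94386392, plus strand: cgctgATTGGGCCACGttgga

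An exact ERSE stood in 5 of the 10 promoters, those of Hspa5, Hsp90b1, Calr, Canx and Pdia6, against 39 of 32851 promoters of the same length in the table (0.119%). With at most 1 mismatch it stood in 8 of 10, against 494 of all promoters (1.504%). An exact ERSE holds both a CCAAT box and the letters CCACG, while the copies with 1 mismatch listed here hold the CCAAT box and lack the other letters. The CCAAT box stood in 9 of 10 windows and in 37.4% of all promoters, and CCACG in 8 of 10 and in 32.8%. Positions count from 1 at the 5′ end of the motif, whose base is given first and the site's base last. Pdia3 departed from the motif by G19A, Pdia4 by G19T, and Herpud1 had an ERSE with G19A that begins 18 bases before its start. Hsp90b1 carried a further copy with C18G between its 2 exact ones. ERSE-II was exact only in Herpud1, against 0.0365% of all promoters, and Hspa5 had a copy with C10T. No ERSE or ERSE-II with at most 1 mismatch was found in the windows of Xbp1 and Dnajb9. The 10 genes were known beforehand as targets of this response, so these shares are a description and not a test. A match describes letters only, and binding was not measured.

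**Figure D1:**
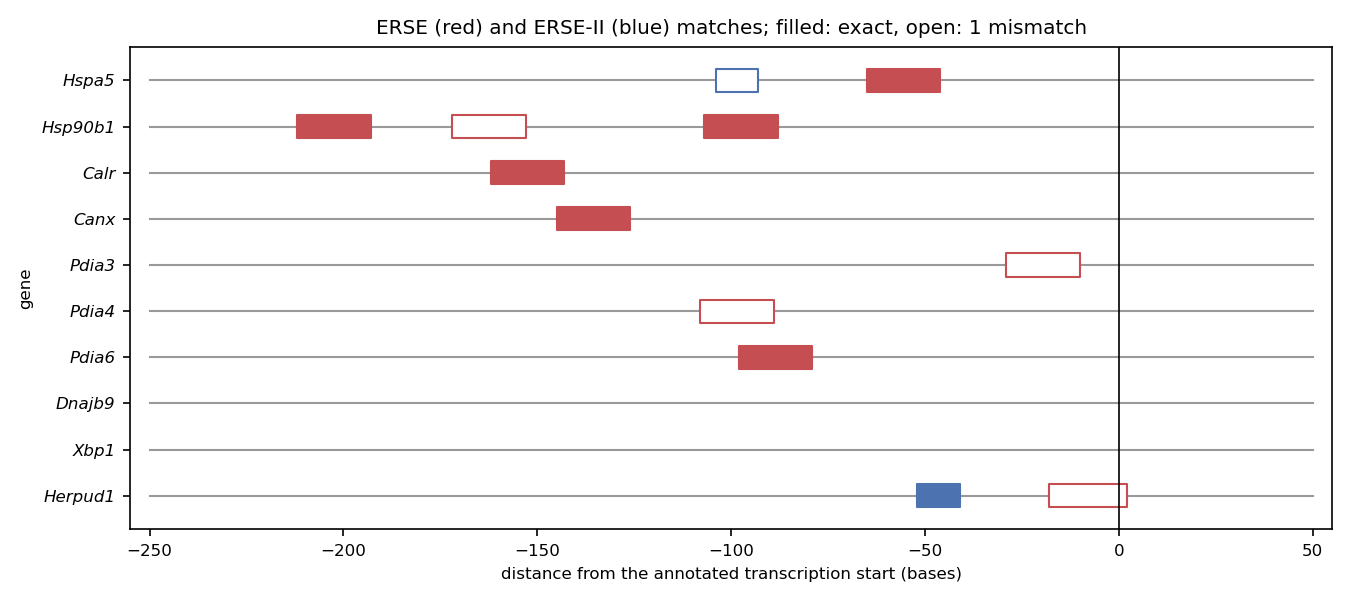
Position of ERSE (red) and ERSE-II (blue) matches in the promoter window of each of the 10 genes, in bases from the annotated start (vertical line), with exact matches filled and matches with 1 mismatch open. The exact ERSE of Hspa5 begins 65 bases and that of Canx 145 bases before the start, and Xbp1 and Dnajb9 have neither motif.

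Several libraries stood apart. Total counts ran from 14839758 to 22070373 per library, and each of the 10 genes had at least 411 counts in every library. Cardiomyocyte markers (6 genes) summed to 43248 to 60933 CPM (counts scaled to a common library size) in 29 libraries and to 21473 CPM in PBS_sham 3, which had 1795 CPM of smooth muscle markers against 171 and 248 CPM in the other PBS_sham libraries. Haemoglobin transcripts summed to at most 51.1 CPM in 7 libraries (all of KO_TAC, FF_TAC 2 and 3, and KO_sham 2) and to at least 293.9 CPM in the other 23. Early response genes (12 genes, such as Fos) summed to 2261 to 5589 CPM in those 7 libraries and to 173 to 247 CPM in the other floxed libraries, and Atf3 on that list is also on the PERK list below. The targeted gene went against 3 labels. Cpt1a was 46.2 CPM in the library labelled KO_sham 2, inside the FF_sham range of 37.8 to 52.6 CPM. It was 20.3 and 16.2 CPM in those labelled FF_TAC 2 and 3, against 20.3 to 23.6 CPM in the other KO_sham libraries and 11.1 to 19.6 CPM in KO_TAC. Directions drawn from KO_sham or FF_TAC rest on these labels, and counts of called members are also given without the 3 libraries.

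Levels of the 10 genes were compared with each other per kilobase of exon. In FF_sham, Hspa5 (134.0 ± 25.9 CPM per kb) and Calr (122.9 ± 13.3) were the highest (SD, n = 4). Hsp90b1 (69.3 ± 6.6), Herpud1 (66.6 ± 15.7) and Canx (62.3 ± 6.8) followed, and Pdia3 was at 44.0 ± 3.4 CPM per kb. At the low end stood Pdia6 (23.2 ± 2.7), Xbp1 (19.8 ± 2.6), Dnajb9 (18.4 ± 2.3) and Pdia4 (13.5 ± 1.5 CPM per kb). Neighbours in this order differed by less than their spread within the pair Hspa5 and Calr, among Hsp90b1, Herpud1 and Canx, and between Xbp1 and Dnajb9, where the spread is the larger SD of the pair. All other levels below are in CPM, scaled by TMM within a cohort, and are compared within a gene.

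KO_TAC against KO_sham asks what pressure overload did in the knockouts. The chaperones Hspa5, Hsp90b1 and Calr and the disulfide isomerase Pdia3 rose 1.24-fold to 1.40-fold, while Canx, Pdia4, Pdia6, Dnajb9, Xbp1 and Herpud1 did not pass the test. By edgeR's quasi-likelihood test at a Benjamini-Hochberg adjusted p under 0.05 over 15596 genes, 4 of the 10 genes were called, all higher. The background was high, since 25.8% of all genes were called and 14.3% were called higher. The median log2 change of the 10 genes was 0.31, against 0.02 over all genes tested. For 3 members, Calr, Pdia3 and Pdia6, every KO_TAC library lay above every KO_sham library, and 23.1% of all genes did not overlap.

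The effect of the knockout under overload is read from KO_TAC against FF_TAC. Hsp90b1, Calr, Pdia3, Pdia4 and Pdia6 were higher in KO_TAC by 1.29-fold to 1.48-fold, and Hspa5 missed the threshold. In this comparison 5 of 10 genes were called, all higher, where 14.3% of all genes were called and 7.53% were called higher. The median log2 change was 0.39 against 0.04 over all genes. For 4 members, Hspa5, Calr, Pdia3 and Pdia6, the groups did not overlap, as for 13.5% of all genes. Both comparisons use the same 4 KO_TAC libraries, so they are not independent of each other. In whole hearts, more RNA per cell and more cells of a type rich in these transcripts cannot be told apart.

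Calls depended on the fit. Without the 3 libraries that went against their labels, 1 member (Calr) was called against KO_sham and 2 (Hsp90b1 and Pdia3) against FF_TAC, where 23.4% and 22.4% of all genes were called. In that fit 0 were called in FF_TAC against FF_sham, KO_sham against FF_sham and the interaction of knockout and TAC (0 at an unadjusted p under 0.05 in each). With a term for the haemoglobin split, 0 were called against KO_sham (3 at an unadjusted p under 0.05), where 1.75% of all genes were called, and 1 against FF_TAC (Pdia3), where 7.23% were. The median log2 change of the 10 genes with that term was 0.31 and 0.41. When only the 2 groups compared were fitted, 0 were called in either comparison (4 and 6 at an unadjusted p under 0.05), where 15.5% and 3.79% of all genes were called. Leaving out any 1 library other than KO_TAC 4 left 1 or 2 calls against KO_sham. Against FF_TAC 1 to 3 were left without any 1 library other than FF_TAC 2 (4 calls) and KO_TAC 4 (6 calls). Of the genes called in these fits, Hspa5 was called in 2 of 8, and Hsp90b1 and Pdia3 in 1 of 8, against KO_sham. Hsp90b1 was called in 2 of 8, and Pdia4 and Pdia6 in 3 of 8, against FF_TAC. Shares of all genes called with 1 library left out are not given here. DESeq2 called 5 against KO_sham and 6 against FF_TAC, where it called 30.9% and 19.6% of all genes. Voom with sample weights called 7 and 6, where it called 53.4% and 38.5% of all genes.

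**Figure D2:**
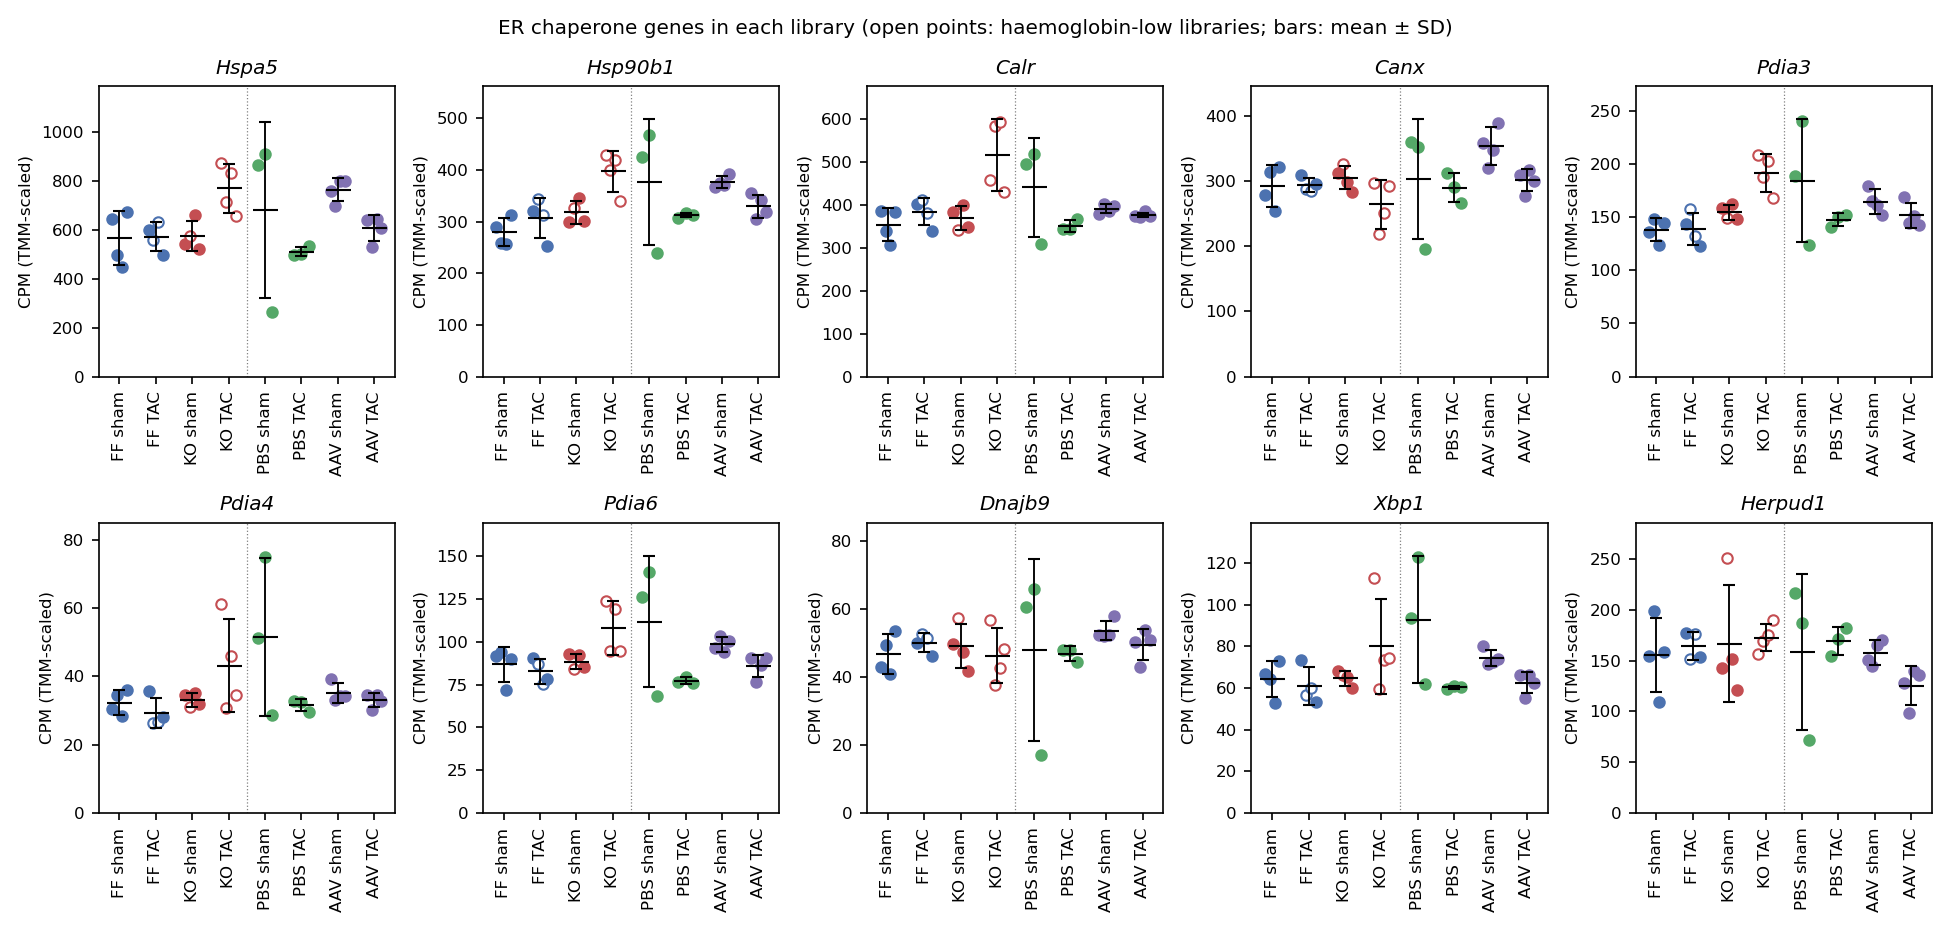
Level of each gene in CPM for every library by group, with group mean ± SD as black bars, and open points for the 7 haemoglobin-low libraries (the dotted line separates the cohorts). Pdia3 lies between 167.7 and 208.4 CPM in KO_TAC, above all FF_TAC and KO_sham libraries, and PBS_sham 3 lies far below the other PBS_sham libraries for Hspa5 and Dnajb9.

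Hspa5 (chr2:34771970-34777547) encodes BiP, the ER member of the HSP70 family and the chaperone that holds the stress sensors inactive. Its level was 874.1, 713.8, 834.7 and 657.4 CPM in KO_TAC. The KO_sham libraries had 541.7, 574.4, 661.9 and 521.8 CPM, and the FF_TAC libraries 602.0, 559.5, 631.4 and 496.7 CPM. All 4 KO_TAC libraries lay above FF_TAC, and 1 of them lay just below the highest KO_sham library. The log2 change was 0.42 against KO_sham (SE 0.14, edgeR adjusted p 0.0405) and 0.43 against FF_TAC (SE 0.14, adjusted p 0.0558).

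Hsp90b1 (chr10:86690209-86705509) encodes GRP94, the ER form of HSP90. It was measured at 428.1, 400.7, 418.8 and 340.7 CPM in KO_TAC, 298.8, 326.1, 346.4 and 300.7 in KO_sham, and 320.6, 343.4, 312.9 and 252.4 in FF_TAC. The lowest KO_TAC library overlapped both other groups. The log2 change was 0.32 against KO_sham (SE 0.11, edgeR adjusted p 0.0477) and 0.37 against FF_TAC (SE 0.11, adjusted p 0.0403). Its exons overlap 1810014B01Rik on the opposite strand and Gm15344 and Gm25745 on its own. Whether the counting used strand is not given in the sources used here, so its counts are uncertain to that extent.

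The lectin chaperones parted. Calr (chr8:84841850-84846934) encodes calreticulin, the soluble lectin that binds monoglucosylated glycoproteins, and Canx (chr11:50293961-50325673) encodes calnexin, its membrane-anchored counterpart. Calr was 458.0, 585.1, 592.8 and 430.4 CPM in KO_TAC, above all 4 KO_sham libraries (384.5, 341.2, 400.0 and 349.5 CPM) and all 4 FF_TAC libraries (401.5, 411.4, 382.3 and 340.4 CPM). The log2 change of Calr was 0.49 against KO_sham (SE 0.12, edgeR adjusted p 0.0123) and 0.43 against FF_TAC (SE 0.12, adjusted p 0.0299). With a single library left out, Calr was called against KO_sham in 8 of 8 fits and against FF_TAC in 3 of 8. Canx was 296.7, 218.1, 250.7 and 291.9 CPM in KO_TAC, 312.1, 326.7, 299.3 and 283.7 in KO_sham, and 309.5, 287.3, 285.2 and 294.9 in FF_TAC. The groups overlapped, and the log2 change of Canx was −0.21 (SE 0.11, adjusted p 0.163) and −0.15 (SE 0.11, adjusted p 0.350). Canx thus carried an exact ERSE, as Calr did, without a called rise in edgeR, and voom called it lower in KO_TAC than in KO_sham (−0.25, adjusted p 0.0312).

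Among the protein disulfide isomerases, Pdia3 (ERp57, chr2:121413775-121438687) is the partner of calreticulin and calnexin on glycoproteins. It was 208.4, 187.9, 202.6 and 167.7 CPM in KO_TAC, 158.6, 149.5, 162.8 and 147.8 in KO_sham, and 143.7, 157.3, 132.2 and 122.9 in FF_TAC. All 4 KO_TAC libraries lay above all 8 others. The log2 change of Pdia3 was 0.31 against KO_sham (SE 0.10, edgeR adjusted p 0.0355) and 0.46 against FF_TAC (SE 0.10, adjusted p 0.00795). With a single library left out, Pdia3 was called against FF_TAC in 8 of 8 fits. Exons of Pdia3 overlap Catsper2 on the opposite strand.

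Pdia6 (P5, chr12:17266545-17284770), an isomerase that works with BiP, was 124.1, 94.6, 119.0 and 94.5 CPM in KO_TAC. KO_sham had 92.8, 84.1, 92.0 and 85.1 CPM and FF_TAC 90.8, 86.8, 75.4 and 78.3 CPM. KO_TAC did not overlap either group, with 2 of its libraries just above the highest KO_sham library. The log2 change of Pdia6 was 0.29 against KO_sham (SE 0.12, edgeR adjusted p 0.0767) and 0.38 against FF_TAC (SE 0.12, adjusted p 0.0389). Its exons overlap Atp6v1c2 on the opposite strand.

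Pdia4 (ERp72, chr6:47796141-47813430), a further isomerase, was 61.2, 30.8, 46.0 and 34.6 CPM in KO_TAC, 34.5, 30.9, 35.2 and 32.0 in KO_sham, and 35.7, 26.3, 26.6 and 28.2 in FF_TAC. The groups overlapped, and KO_TAC 1 was far above the rest. The log2 change of Pdia4 was 0.38 against KO_sham (SE 0.18, edgeR adjusted p 0.115) and 0.57 against FF_TAC (SE 0.18, adjusted p 0.0431). Without KO_TAC 1 these were 0.16 (adjusted p 0.393) and 0.34 (adjusted p 0.0961). The microRNA gene Mir704 lies in its exons.

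Xbp1 (chr11:5520659-5525893) encodes the transcription factor whose RNA IRE1 splices into its active form. Counts per gene do not tell the spliced from the unspliced form. The level of Xbp1 was 112.8, 59.6, 73.3 and 74.5 CPM in KO_TAC, 68.2, 66.1, 65.2 and 59.8 in KO_sham, and 73.7, 56.8, 60.1 and 53.2 in FF_TAC. KO_TAC 1 was again highest and the groups overlapped. Its log2 change was 0.31 against KO_sham (SE 0.17, edgeR adjusted p 0.178) and 0.39 against FF_TAC (SE 0.17, adjusted p 0.121), and without KO_TAC 1 it was 0.09 and 0.17. KO_TAC 1 also had 1336 CPM of plasma and B cell markers (7 genes, such as Jchain and Igkc), against at most 43.0 CPM in the other 3 KO_TAC libraries. KO_TAC 1 was also the highest KO_TAC library for Hspa5, Hsp90b1, Canx, Pdia3, Pdia6 and Dnajb9. The part of those cells in the levels of the members was not tested.

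Dnajb9 (ERdj4, chr12:44205559-44210326) is a J-domain partner of BiP and a target of spliced XBP1. It was 56.7, 37.6, 42.7 and 48.2 CPM in KO_TAC, 49.6, 57.4, 47.5 and 41.7 in KO_sham, and 50.2, 52.8, 51.4 and 46.3 in FF_TAC. These overlapped, and its log2 change was −0.08 against KO_sham (SE 0.13, edgeR adjusted p 0.659) and −0.11 against FF_TAC (SE 0.13, adjusted p 0.578). Its exons overlap Mir5627 on the opposite strand.

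Herpud1 (chr8:94386438-94395377) encodes HERP, a membrane protein of ER-associated degradation. It was 156.8, 169.3, 175.0 and 189.7 CPM in KO_TAC, 142.5, 251.0, 152.0 and 121.2 in KO_sham, and 176.8, 151.2, 176.3 and 153.5 in FF_TAC. The highest value was that of the library labelled KO_sham 2. The log2 change of Herpud1 was 0.05 against KO_sham (SE 0.20, edgeR adjusted p 0.869) and 0.07 against FF_TAC (SE 0.20, adjusted p 0.836). Without the library labelled KO_sham 2, the first was 0.31 and not called.

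In FF_TAC 2 and 3, which were low in haemoglobin as KO_TAC was, Hspa5 was 559.5 and 631.4 CPM, Calr 411.4 and 382.3, Pdia3 157.3 and 132.2, Pdia4 26.3 and 26.6, and Pdia6 86.8 and 75.4 CPM. Each of these 5 genes was higher in all 4 KO_TAC libraries than in those 2. Hsp90b1, Canx, Dnajb9, Xbp1 and Herpud1 overlapped. The share of all genes without overlap in this split was not counted, so it gives no result about the members. Cpt1a in FF_TAC 2 and 3 also went against their label. A fit of these 6 libraries alone called 0 members and 0 genes in all (1 member and 1620 genes at an unadjusted p under 0.05). Fibroblast markers (7 genes) also moved with the group: they summed to 2324 to 2906 CPM in KO_TAC, 1223 to 1913 in KO_sham and 1201 to 1315 in FF_TAC. Of these 7, 4 were called higher in each comparison. Endothelial markers (5 genes) summed to 451 to 649 CPM in KO_TAC, 673 to 841 in KO_sham and 681 to 954 in FF_TAC. No marker of either list was at 0 in KO_TAC. Atrial markers (4 genes) summed to 4498 to 17206 CPM in KO_TAC, highest in KO_TAC 1, to 106 to 3151 in KO_sham and to 152 to 492 in FF_TAC. With Myl7 of that list as a covariate, 4 members were called against KO_sham and 6 against FF_TAC. Of 6 cardiomyocyte markers, 3 were called lower against KO_sham and 2 against FF_TAC. Mitochondrially encoded genes held 12.1 to 18.7% of counts in KO_TAC, 21.6 to 24.4% in KO_sham and 20.9 to 22.6% in FF_TAC. Without those genes 4 and 5 members were called. Shares of all genes called with the Myl7 covariate and without mitochondrial genes are not given here. These counts of calls are therefore no result about the members. The part of the cell types in the chaperone levels was not tested.

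**Figure D3:**
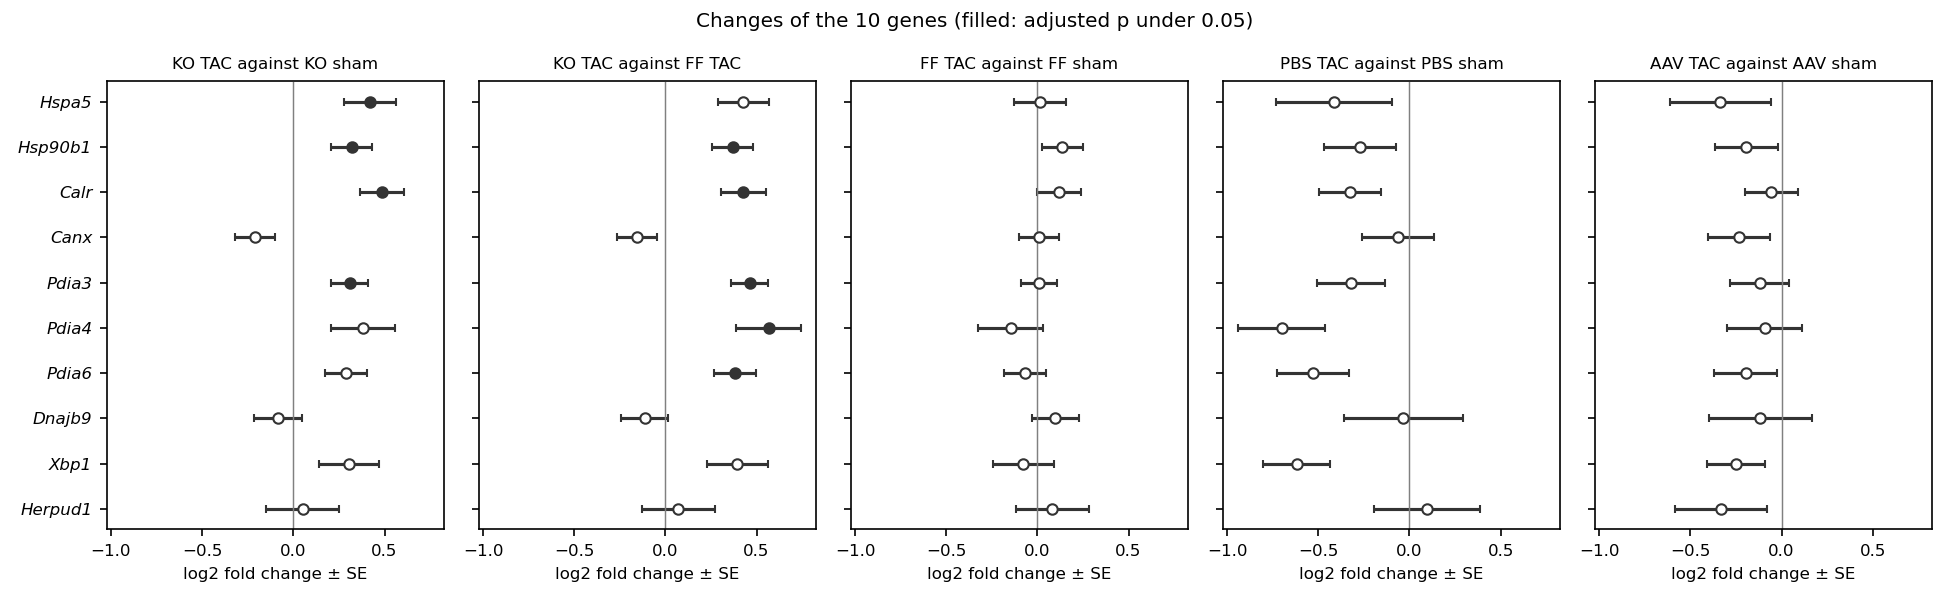
Log2 fold change ± SE of the 10 genes in 5 comparisons, with filled points at an edgeR adjusted p under 0.05. The 4 called genes of KO TAC against KO sham and the 5 of KO TAC against FF TAC all lie above 0, and all 10 points of AAV TAC against AAV sham lie below 0.

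In the floxed controls no member passed the test. FF_TAC against FF_sham gave 0 of 10 called by edgeR, with 0 at an unadjusted p under 0.05, where edgeR called 0% of all genes. DESeq2 and voom also called 0 of the 10, and their shares of all genes are not given here. The log2 changes ran from −0.15 (Pdia4, SE 0.18) to 0.14 (Hsp90b1, SE 0.11). FF_sham levels of Hspa5 were 645.6, 497.8, 450.3 and 673.2 CPM and enclosed all 4 FF_TAC libraries. KO_sham against FF_sham, the knockout without overload, also gave 0 of 10 called by edgeR, DESeq2 and voom (0 at an unadjusted p under 0.05 in edgeR). The share of all genes called there was 0% by edgeR and is not given here for DESeq2 and voom. All 10 log2 changes there were above 0, from 0.01 (Xbp1, SE 0.17) to 0.19 (Hsp90b1, SE 0.11), and for each gene the 2 groups overlapped.

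The interaction of knockout and TAC tests whether the TAC effect differed between knockouts and floxed controls. It called 0 of 10 genes, where 0.0449% of all genes were called. At an unadjusted p under 0.05 there were 3, where 13.1% of all genes passed that limit. They were Calr (0.37, SE 0.17), Pdia4 (0.53, SE 0.25) and Pdia6 (0.35, SE 0.16 on the log2 scale). Their edgeR adjusted p was 0.377, 0.379 and 0.371. DESeq2 called 0 and voom, which called 18.8% of all genes, 2, Calr (0.51, adjusted p 0.0337) and Pdia3 (0.36, adjusted p 0.0492). The TAC effect therefore differed between knockouts and controls for none of the 10 genes at the threshold used with edgeR or DESeq2.

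In the saline-injected mice of the AAV9 cohort, 9 of 10 log2 changes with TAC lay below 0. PBS_TAC against PBS_sham gave 0 of 10 called by edgeR, which called 0.0318% of all genes. DESeq2 also called 0, and its share is not given here. At an unadjusted p under 0.05 in edgeR there were 3 (Pdia4, Pdia6 and Xbp1, all lower), as for 18.5% of all genes. Voom with sample weights called 7, where it called 252 of 15745 genes. Log2 changes were −0.70 for Pdia4 (SE 0.24, edgeR adjusted p 0.188), −0.53 for Pdia6 (SE 0.20, adjusted p 0.203) and −0.62 for Xbp1 (SE 0.18, adjusted p 0.167). The median over the 10 genes was −0.32, against −0.02 over all genes. One PBS_sham library lay apart. Hspa5 was 867.0, 912.7 and 266.2 CPM in PBS_sham and 499.1, 501.0 and 534.2 CPM in PBS_TAC. Dnajb9 was 60.8, 66.1 and 17.1 CPM in PBS_sham and 48.1, 48.1 and 44.3 CPM in PBS_TAC. Herpud1 was 216.7, 187.5 and 71.7 CPM against 154.6, 171.2 and 182.1 CPM. In each of these genes PBS_sham 3 lay below and the other 2 PBS_sham libraries above all PBS_TAC libraries. Only for Xbp1 did all PBS_TAC libraries lie below all PBS_sham libraries, and 14.7% of all genes did not overlap.

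Without PBS_sham 3, the library low in cardiomyocyte markers, 6 of the 10 genes were called lower in PBS_TAC, where 0.509% of all genes were called. They were Hspa5 (−0.80, SE 0.10, edgeR adjusted p 0.00563), Hsp90b1 (−0.51, SE 0.09, adjusted p 0.0192), Calr (−0.53, SE 0.07, adjusted p 0.00692), Pdia4 (−0.99, SE 0.13, adjusted p 0.00563), Pdia6 (−0.79, SE 0.09, adjusted p 0.00434) and Xbp1 (−0.84, SE 0.11, adjusted p 0.00563). That fit leaves 2 PBS_sham libraries against 3. Voom with sample weights, which keeps all libraries, called those 6 and Pdia3 lower. PBS_sham 2, the highest of its cohort for 8 of the 10 genes, had 140.4 CPM of plasma and B cell markers, against 9.69 CPM in PBS_sham 1, which was also above all 3 PBS_TAC libraries for all 10 genes. Without PBS_sham 2, 0 were called, and without PBS_sham 1, 0 were called.

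**Figure D4:**
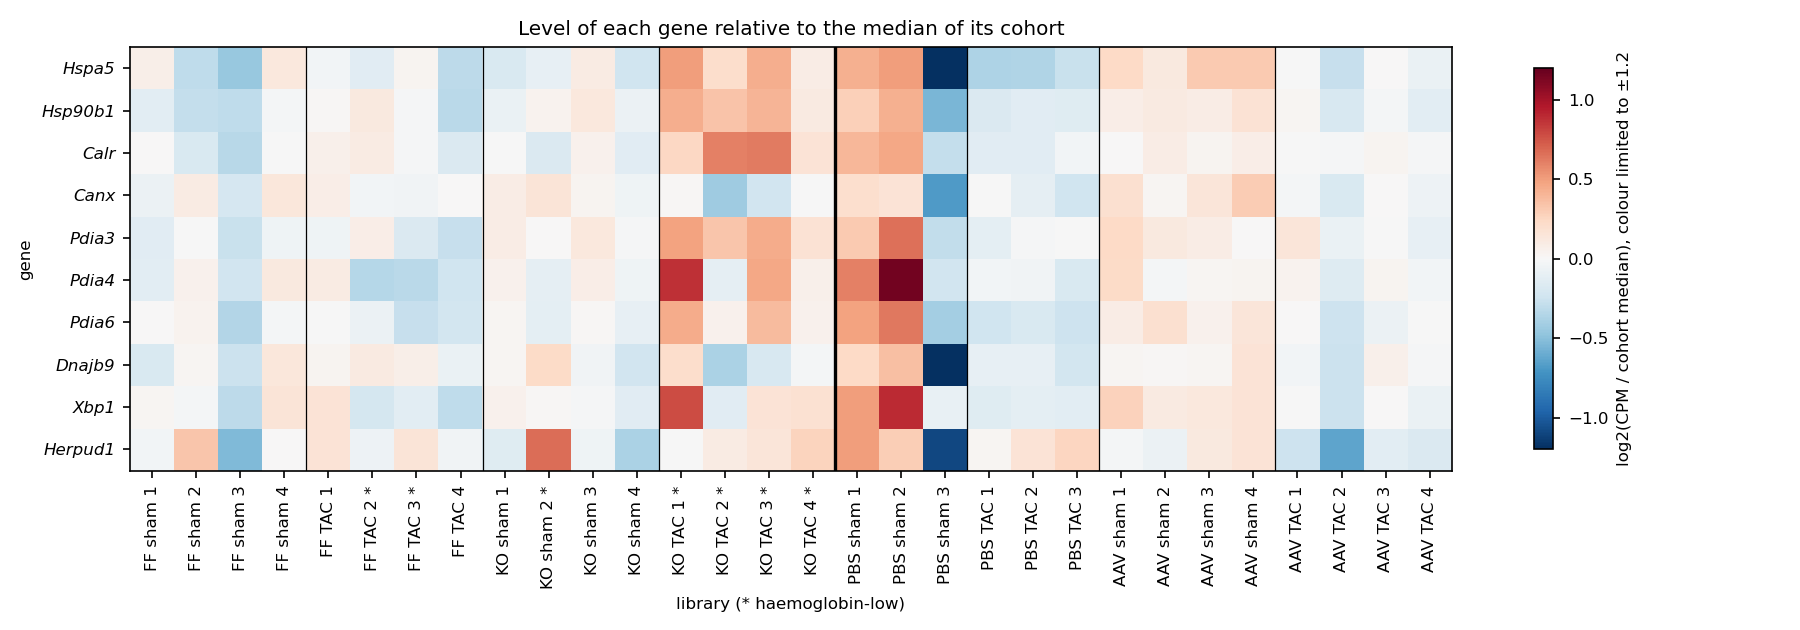
Log2 of each gene's CPM over its cohort median (colour) for 30 libraries in columns and the 10 genes in rows, with asterisks on the 7 haemoglobin-low libraries and a thick line between cohorts. PBS sham 1 and 2 and KO TAC 1 and 3 are high for most genes, and PBS sham 3 is low, with Dnajb9 at 17.1 CPM and Hspa5 at 266.2 CPM.

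AAV_TAC against AAV_sham called 0 of 10 genes by edgeR, DESeq2 and voom, with 0 at an unadjusted p under 0.05 in edgeR. By edgeR 0.00635% of all genes were called, and the shares of DESeq2 and voom are not given here. All 10 log2 changes were below 0, from −0.34 (Hspa5, SE 0.28) to −0.06 (Calr, SE 0.15). For 6 genes the 4 AAV_TAC libraries lay below the 4 AAV_sham libraries, in a comparison where 10.7% of all genes did not overlap. Among them Hspa5 was 641.4, 530.8, 645.9 and 607.6 CPM in AAV_TAC and 761.4, 698.7, 801.4 and 798.8 CPM in AAV_sham. Hsp90b1, Canx, Pdia6, Xbp1 and Herpud1 were the other 5. Herpud1 was 128.4, 98.1, 139.9 and 135.6 CPM in AAV_TAC and 150.5, 145.0, 165.1 and 170.8 CPM in AAV_sham. The spread that edgeR used for these genes is shared with PBS_sham 3. With only the 2 AAV groups fitted, 0 members were called, where 0.971% of all genes were called. At an unadjusted p under 0.05 there were 6 members and 2862 of 14732 genes.

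The vector itself was compared in sham and in TAC hearts. AAV_sham against PBS_sham called 0 of 10 (1 at an unadjusted p under 0.05, Pdia4 at −0.55, SE 0.22, edgeR adjusted p 0.199), where 0.0127% of all genes were called. Without adjustment 20.7% of all genes passed 0.05. DESeq2 called 0 and voom 3 (Pdia4, Pdia6 and Xbp1, all lower), where voom called 0.445% of all genes. Without PBS_sham 3, Pdia4 was called lower in AAV_sham (−0.84, adjusted p 0.0290). Pdia4 was 39.3, 32.9, 34.2 and 34.3 CPM in AAV_sham and 51.2, 74.8 and 28.6 CPM in PBS_sham, so that the groups overlapped through PBS_sham 3 alone. AAV_TAC against PBS_TAC called 0 of 10 by edgeR, DESeq2 and voom (0 at an unadjusted p under 0.05 in edgeR). By edgeR 0.0381% of all genes were called, and the shares of DESeq2 and voom are not given here. Herpud1 had the largest change there (−0.43, SE 0.27), with the 4 AAV_TAC libraries below the 3 PBS_TAC libraries, while those of Calr lay above, and 8.47% of all genes did not overlap. The interaction of vector and TAC called 0 of 10 by edgeR and DESeq2 (0 at an unadjusted p under 0.05 in edgeR). Of all genes edgeR called 0.00635% there. Voom called Pdia4 (0.98, adjusted p 0.0344), and the shares of DESeq2 and voom are not given here.

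The TAC effect of the knockouts was set against those of the AAV9 cohort in a single fit of all 30 libraries, a comparison added after the data had been seen. Against the TAC effect in saline-injected mice, 5 of the 10 genes differed, each higher in the knockouts, where 11.9% of 16583 genes were called. They were Calr, Pdia3, Pdia4, Pdia6 and Xbp1, with differences of 0.64 to 1.09 on the log2 scale. Against the TAC effect in vector-treated mice, 0 of 10 were called by edgeR (6 at an unadjusted p under 0.05), where 2.36% of genes were called. DESeq2 called 1 there (Calr) and voom 6. The 2.36% is the share by edgeR, and those by DESeq2 and voom are not given here. The 2 cohorts differ in their genotype labels and injections, so cohort and knockout cannot be told apart here.

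The other genes of the pathway were grouped in 6 lists, 77 genes of which were tested. In KO_TAC against KO_sham 26 of them were called higher and 1 lower, and in KO_TAC against FF_TAC 22 and 1, with medians of 0.27 in each. Over all genes, 14.3% and 7.53% were called higher, and shares of a list near these are no result about the list. In FF_TAC against FF_sham, PBS_TAC against PBS_sham and AAV_TAC against AAV_sham 0 of the 77 were called.

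Of 13 co-chaperones and exchange factors, 6 were higher in KO_TAC than in KO_sham, and 6 were higher and 1 lower than in FF_TAC. Manf, a small ER protein that binds BiP and is secreted under stress, was 42.8 to 72.9 CPM in KO_TAC, 31.8 to 42.9 in KO_sham and 29.97 to 43.0 in FF_TAC (log2 change 0.72 and 0.85, edgeR adjusted p 0.00859 and 0.00465). Creld2, an ER stress-induced disulfide protein, was 15.6 to 35.3 CPM in KO_TAC, above 11.2 to 15.5 in KO_sham and 11.8 to 14.9 in FF_TAC (0.99 and 0.98). Sdf2l1, a partner of the J proteins of the ER, rose against FF_TAC (1.09, adjusted p 0.0105). Dnajc1, a J protein of the ER membrane, rose by 0.64 against KO_sham. Cdnf, the paralogue of Manf, was lower than in FF_TAC (−0.61, adjusted p 0.0117).

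Among 18 disulfide and proline enzymes, 5 rose against KO_sham and 6 against FF_TAC. P4hb, the classical protein disulfide isomerase and a subunit of collagen prolyl hydroxylase, was 318.6 to 503.8 CPM in KO_TAC, 224.3 to 270.4 in KO_sham and 194.2 to 255.4 in FF_TAC (log2 change 0.73 and 0.91, edgeR adjusted p 0.00348 and 0.00138). Ero1l, the oxidase that recharges it, rose by 0.67 against FF_TAC, and the prolyl isomerase Fkbp7 rose by 0.63 and 0.77. Fkbp11, an isomerase of secretory cells, was 3.75 to 7.95 CPM in KO_TAC and 1.40 to 2.81 CPM in KO_sham (1.26, adjusted p 0.00816). The part of plasma and B cells in the levels of the listed genes was not tested.

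Of 18 genes of ER-associated degradation, 4 rose in each comparison, among them Edem1, a lectin that extracts misfolded glycoproteins (0.54 and 0.50), Selenos (0.57 and 0.55) and the ubiquitin-conjugating enzyme Ube2g2 (0.52 and 0.40). Of 8 genes of glycoprotein quality control, only Prkcsh, the beta subunit of glucosidase II, was called (0.38 and 0.43), a share near that of all genes, and the median of that list was −0.03 and −0.02.

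Among sensors and transcription factors, 3 of 10 rose and 1 fell against KO_sham, and 1 rose against FF_TAC, the latter near the share over all genes. Creb3 rose in both (0.74 and 0.72, edgeR adjusted p 0.0062 and 0.00883), Creb3l2 and Nfe2l1 against KO_sham (0.96 and 0.30), and the protease gene Mbtps2, whose product cleaves ATF6, fell by 0.41. The output of PERK and the integrated stress response had 7 of 10 genes called higher against KO_sham and 4 against FF_TAC, with medians of 1.47 and 0.89. In FF_TAC against FF_sham its median was 1.03 with 0 called. Nupr1 was 47.3 to 140.5 CPM in KO_TAC and 4.52 to 11.9 CPM in KO_sham (3.73, adjusted p 0.00163). The amino acid enzyme gene Asns rose by 2.84 and 1.91, and Atf4, the central factor of that branch, by 1.59 against KO_sham. Trib3 rose by 1.26 against FF_TAC.

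Some of these genes also followed the haemoglobin split outside KO_TAC. Atf4 was 110.8 to 203.9 CPM in FF_TAC 2, FF_TAC 3 and the library labelled KO_sham 2, 55.4 to 69.6 CPM in the other 5 libraries of those groups, and 204.1 to 220.7 CPM in KO_TAC. Ddit3, which encodes the stress factor CHOP, was 51.2 to 53.2, 20.0 to 27.5 and 45.7 to 132.7 CPM in the same 3 sets. Nupr1 was 11.9 to 26.1, 4.03 to 7.31 and 47.3 to 140.5 CPM, and Edem1 17.0 to 17.9, 12.9 to 13.9 and 18.4 to 23.4 CPM. Dnajc1 was 30.3 to 35.05, 26.6 to 29.6 and 32.2 to 65.5 CPM. Manf, Creld2 and P4hb overlapped between the 3 libraries and the other 5, and Sdf2l1 was lower in the 3 (3.86 to 4.80 CPM) than in the other 5 (5.63 to 9.58 CPM). Manf was 32.5 to 38.4 CPM there and 29.97 to 43.0 CPM in the other 5. Of the 10 chaperone genes, only Dnajb9 was higher in all 3 (51.4 to 57.4 CPM) than in the other 5 (41.7 to 50.2 CPM). The share of all genes that lay apart in this way was not counted, so that count is no result about the members. The part of what sets these libraries apart in the changes was not tested.

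**Figure D5:**
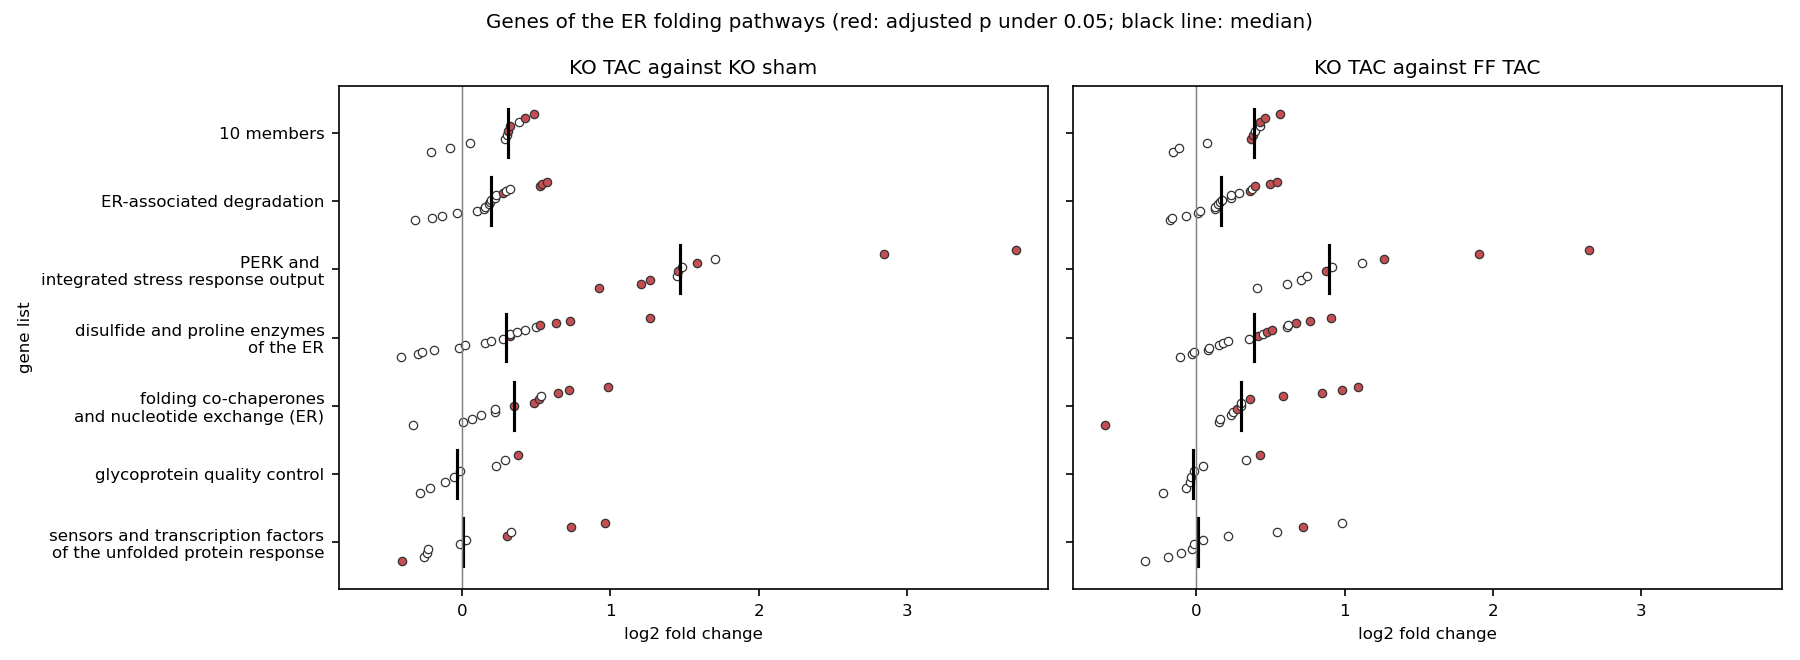
Log2 fold changes of the 10 members and of 77 tested genes in 6 pathway lists for KO TAC against KO sham (left) and KO TAC against FF TAC (right), 1 point per gene, red at an edgeR adjusted p under 0.05, with the list median as a black line. The PERK and integrated stress response list has the highest medians (1.47 and 0.89), and that of glycoprotein quality control lies near 0.

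In the AAV9 cohort 1 pathway gene was called in any comparison: Ddit3 was 17.1 to 17.7 CPM in AAV_sham and 27.8 to 41.8 CPM in PBS_sham (log2 change −0.93, SE 0.12, edgeR adjusted p 0.0208).

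Members were also compared across libraries. Over the 16 floxed libraries the correlation of a member's log2 CPM with the mean of the other 9 was 0.78 to 0.89 for Hspa5, Hsp90b1, Pdia3, Pdia4, Pdia6 and Xbp1, 0.60 for Calr, 0.33 for Herpud1, 0.28 for Dnajb9 and −0.02 for Canx. Over the 14 AAV9 libraries it was 0.76 to 0.98 for all 10, with PBS_sham 3 included. Points share library depth and tissue makeup, and no p is given. Among 15310 genes tested in both cohorts, those most like the mean of the 10 members were Manf (r 0.84 and 0.87), Rpn2 (0.79 and 0.83), M6pr (0.78 and 0.78), Tmem33, Uap1, Nucb1, Spint2, Dnajc3, Ifi205 and Sdf2l1, ranked by the lower of the 2 cohorts' values. Manf, Dnajc3 and Sdf2l1 were also on the list of co-chaperones.

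The other genes with an exact ERSE were read in the same fits. Of 32 other genes with an exact ERSE, 11 were tested in the floxed cohort. In KO_TAC against KO_sham 2 were higher (Creld2 and Zfp57) and 2 lower (Acacb and Pan2), which is 36.4% called against 25.8% of all genes. In KO_TAC against FF_TAC 1 was higher (Creld2) and 1 lower (Acacb), 18.2% against 14.3%. Among the 10 members with an exact ERSE, Hspa5, Hsp90b1, Calr and Pdia6 were called in at least 1 of these comparisons, and Canx was not. Of those with 1 mismatch in ERSE, Pdia3 and Pdia4 were called and Herpud1 was not. Xbp1 and Dnajb9, which have neither motif, were not called. A link between motif and change was not tested.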

How the data were processed

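Poly(A) RNA of 30 mouse hearts was sequenced in paired ends after stranded library preparation, per the labels' protocols. The authors deposited 1 table of raw counts per gene (whole numbers, 55487 Ensembl identifiers). The submitters' processing notes name HISAT2 2.1.0, featureCounts, Subread 1.5.1 and GRCm38, and the strand setting is not given in the sources used here. Symbols, exon lengths and coordinates came from GENCODE M21 (GRCm38), which matched 55227 identifiers. Identifiers without a symbol held 0.00336% of counts. No 2 libraries of a group agreed within sampling noise (chi-square per degree of freedom at least 6.80 over 42 pairs).

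The 10 genes, the pathway lists and the marker lists were chosen with earlier results of these data known. Each cohort was fitted alone in edgeR 4.0.16 (R 4.3.3; quasi-likelihood F test, a mean for each group), with TMM scaling and the filterByExpr filter, which kept 15596 and 15745 genes and all 10 members. Adjusted p-values are Benjamini-Hochberg over all genes tested, in each of 10 comparisons, and genes were called under 0.05. SE is the log2 fold change over the square root of F. CPM are counts over TMM-scaled totals. Named pathway genes are the 3 largest called rises and falls per list and comparison. The genes most like the members were ranked by Pearson's r of log2 CPM (prior count 2) with the members' mean. Zfp57, Acacb and Pan2 were named after their values were seen. Alternatives were DESeq2 1.42.0, voom with sample weights (limma 3.58.1), other size factors, filters and covariates, a replicate block, terms or subsets for the haemoglobin split (limit 100 CPM), and leaving out each library. The scripts were tested on simulated data. Promoters are RefSeq windows. Proteins and the microRNA work of the series were not analysed here.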

Additional observations from a re-analysis of the deposited data

Results flagged for a closer look

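The change with TAC differed between the knockouts and the saline-injected mice for 5 of the 10 genes, in a fit of all 30 libraries in edgeR (p-values adjusted over 16583 genes). The difference of the 2 log2 changes was 0.82 for Calr (SE 0.20, adjusted p 0.0105), 0.64 for Pdia3 (SE 0.19, adjusted p 0.0327), 1.09 for Pdia4 (SE 0.29, adjusted p 0.0190), 0.82 for Pdia6 (SE 0.21, adjusted p 0.0163) and 0.93 for Xbp1 (SE 0.25, adjusted p 0.0181). In that fit each of the 5 log2 changes was above 0 in the knockouts, where only Calr was called, and below 0 in the saline-injected mice, where none of the 5 was called. Over the 14 fits that each left out 1 library of these 4 groups, the call of Calr held in 14, that of Pdia4 in 13, those of Pdia6 and Xbp1 in 12 and that of Pdia3 in 6. Without PBS_sham 2 only 1 gene was called, and without PBS_TAC 1 only 2. Without PBS_sham 3, low in cardiomyocyte markers, 7 were called. Shares of all genes called with 1 library left out are not given here. KO_TAC 1 and PBS_sham 2 were high in plasma and B cell markers, and Cpt1a in KO_sham 2 went against its label. Cohort and knockout cannot be told apart in these differences.

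Of 60 sets of 4 libraries (10 genes in 6 groups), 2 had a library far from the other 3 by Dixon's criterion at 95%, where chance gives about 1 in 20. Calr was 385.1 CPM in AAV_TAC 3 against 372.7 to 374.8 CPM in the others. Dnajb9 was 57.9 CPM in AAV_sham 4 against 52.1 to 52.5 CPM.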

How the results depend on the processing

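For KO_TAC against KO_sham the 4 calls became 7 with voom (6 higher, and Canx lower), 1 with no filter on low counts, 2 with a mean of at least 5 CPM, 2 with a replicate block, 1 with all 30 libraries in one fit, 0 with only the groups compared, 0 with the haemoglobin term and 1 without FF_TAC 2, FF_TAC 3 and KO_sham 2. With any 1 library left out, the count was 1 to 4. For KO_TAC against FF_TAC the 5 calls became 1 with no filter, 2 with all 30 libraries, 0 with only the groups compared, 1 with the haemoglobin term, 0 among haemoglobin-low libraries alone and 2 without those 3 libraries, and with 1 library left out were 1 (without KO_TAC 3, FF_TAC 3 or FF_TAC 4) to 6. DESeq2, RLE size factors, the atrial covariate and leaving out mitochondrial genes kept both counts within 1.5 times. From 0 calls, voom gave 2 in the interaction of knockout and TAC, 7 in PBS_TAC against PBS_sham, 3 in AAV_sham against PBS_sham and 1 in the interaction of vector and TAC. Leaving out 1 library gave 0 to 6 in PBS_TAC against PBS_sham, 0 to 1 in AAV_sham against PBS_sham, and 0 in the other 6 comparisons within a cohort that had 0 calls. For the TAC effect of knockouts against the vector-treated mice, DESeq2 gave 1 and voom 6, and leaving out 1 library gave 0. Against the saline-injected mice the 5 calls became 1 to 7 when 1 library was left out. Shares of all genes called are given above for only some of these settings. Elsewhere a move of a member count cannot be set beside that of all genes. The cause of these moves was not tested, beyond the smaller number of samples or genes that a setting implies.

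No called log2 change turned its sign under any alternative. Of 123 repeats of called changes under other settings, 77 kept the call, and of 142 with 1 library left out, 88 did. Uncalled changes switched sign in 35 of 1027 repeats under other settings and in 79 of 1058 with 1 library left out. The labels do not say that replicate numbers pair the samples, and the main fits held no replicate block. Deviations correlated over 0.1 in 9 of 24 same-numbered pairs of libraries in the floxed cohort, against 22 of 72 differently numbered pairs. In the AAV9 cohort they did so in 7 of 19, against 21 of 54. Apart from KO_TAC against KO_sham, the block moved no count by over 1.5 times. Every member had at least 411 counts in every library, and each group had 3 or 4 libraries.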
